A study of Mus musculus with 5 samples.

Results

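The Hox cluster genes encode homeodomain transcription factors and lie in 4 clusters, HoxA to HoxD, in which the genes are numbered by paralog group from 1 to 13. They were taken as every non-control probe whose gene name, or whose current symbol for the probe's accession, was Hox followed by a cluster letter and such a number. This gave 49 probes for 38 genes, of 41174 probes for 28770 genes on the array. Mouse has 39 genes in these clusters, and no probe carried the name Hoxc11.

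The genes were followed on 5 one-colour arrays of mouse cell lines from a study that made hepatic progenitors out of neural cells. The hepatic progenitor cells (HPC) were HB1 (replicate 1, strain C57BL6J) and HNG2 (replicate 2, from STOCK Tg(Nanog-GFP, Puro)1 Yam mice), each derived from E13.5 fetal liver. The neural progenitor cells (NPC, 1 array) were the line NSBAg2, grown from the ES cell line BAg73C2, in which a beta-geo cassette is knocked into Afp. The induced hepatic progenitor cells (iHPC, labelled iHep) were NSBAg2 cells infected with pMXs retroviral vectors for 9 (iHPC 9F) or 10 (iHPC 10F) transcription factors, which the labels do not name. G418, to which that cassette gives resistance, was added 3 weeks after infection and kept on for 1 week, so the iHPC were selected for transcription of Afp. Each group is thus 1 or 2 cultured lines or infected cultures, and the p-values measure only how far HB1 lay from HNG2 and 9F from 10F, with no statement in the labels of separate cultures beyond that.

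Within a cluster, Hox genes are arranged on the chromosome in the order of their paralog numbers, and in the embryo they are switched on in that order along the head-to-tail axis (colinearity). Low-numbered genes pattern the hindbrain, central ones the trunk, and high-numbered ones the caudal spinal cord, limbs and urogenital tract. Retinoic acid and Cdx factors open the clusters in the embryo, Polycomb proteins keep them silent and MLL proteins keep them active, and Hox proteins bind DNA together with Pbx and Meis homeodomain cofactors. The forebrain lies in front of the Hox domains, and the liver forms from foregut endoderm.

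Promoter sequence was matched for 22 of the 38 genes (24 promoters) in RefSeq on build GRCm38.p6, as the 250 bases before the annotated start. The 4 shown belong to Hoxa7 and Hoxa11, which had the largest differences measured on both sides between iHPC and NPC, and to Hoxc4 and Hoxd4, the HoxC and HoxD genes with the highest NPC level, neither of which passed in that comparison. All are written 5′ to 3′ on the gene's own strand. Capitals mark TTTATG, the letters of a Cdx site, or AGGTCA, the hexamer bound by retinoic acid receptors, each on either strand, so that the second can read TGACCT.
Hoxa7, chr6:52218574-52218823, minus strand: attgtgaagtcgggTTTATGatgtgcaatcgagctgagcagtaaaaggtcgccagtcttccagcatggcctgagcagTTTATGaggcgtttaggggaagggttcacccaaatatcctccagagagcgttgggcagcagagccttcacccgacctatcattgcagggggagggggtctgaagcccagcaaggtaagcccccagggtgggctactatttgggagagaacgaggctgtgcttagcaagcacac
Hoxa11, chr6:52245811-52246060, minus strand: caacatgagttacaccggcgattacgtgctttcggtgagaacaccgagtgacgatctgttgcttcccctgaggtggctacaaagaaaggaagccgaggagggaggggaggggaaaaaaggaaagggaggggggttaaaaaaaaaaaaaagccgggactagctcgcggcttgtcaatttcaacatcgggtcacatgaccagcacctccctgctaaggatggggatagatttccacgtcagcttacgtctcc
Hoxc4, chr15:103034145-103034394, plus strand: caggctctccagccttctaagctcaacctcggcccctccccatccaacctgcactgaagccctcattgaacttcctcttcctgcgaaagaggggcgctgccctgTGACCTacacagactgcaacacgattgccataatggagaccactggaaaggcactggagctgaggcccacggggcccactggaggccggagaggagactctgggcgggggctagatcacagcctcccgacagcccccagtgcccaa
Hoxd4, chr2:74721728-74721977, plus strand: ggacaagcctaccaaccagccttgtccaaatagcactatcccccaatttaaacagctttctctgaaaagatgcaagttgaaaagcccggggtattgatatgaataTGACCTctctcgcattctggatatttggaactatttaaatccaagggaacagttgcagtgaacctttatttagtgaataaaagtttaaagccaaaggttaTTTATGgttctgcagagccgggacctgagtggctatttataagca
TTTATG occurred 2 times in the Hoxa7 window and 1 time in that of Hoxd4. AGGTCA occurred 1 time each in the windows of Hoxc4 and Hoxd4, and neither occurred in that of Hoxa11. TTTATG was present in 20.8% of the 24 Hox promoters and in 10.8% of all 32851 promoters of the table, and AGGTCA in 25% and 14%. TGATTNAT, the letters of a joint Pbx and Hox site, was present in 8.33% and 2.82%. The Hox promoters held a median of 12.5 CpG dinucleotides (range 2 to 35), against 6 over all promoters. A match is a string of letters only, and no binding was measured.

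A level is given here as the log2 of the background-corrected signal relative to the 75th percentile of its array, which is 0. A gene counted as detected where the scanner software marked a probe as well above background, and the dimmest such signal lay between -6.62 and -5.19 on the 5 arrays. Between 58.9% and 65.6% of the spots passed that mark and none was saturated. Of the 11 hepatoblast markers, 11 were detected on each HPC and iHPC array and 6 on the NPC array. Afp, Alb, Krt8, Krt19 and Hnf4a were not detected in NPC. In limma (adjusted p under 0.05) those genes, Krt18, Cdh1 and Epcam were higher in iHPC than in NPC. These were 8 of the 11 tested, where 2.8% of all genes tested were called higher. Afp, among the 8, is the gene for whose transcription the iHPC were selected, so its rise is no separate evidence. Foxa2 was called lower in iHPC than in NPC and in HPC. It was at 0.07 and -0.36 in iHPC, 2.98 in NPC and 4.91 and 4.56 in HPC. Krt8 was also lower in iHPC than in HPC. Of 10 neural progenitor markers, 8 were detected in NPC, 7 on each iHPC array and 5 and 6 on the HPC arrays. The NPC array also carried mesenchymal collagen signal, with Col1a2 at 6.53 against -3.34 to -1.01 on the other arrays. The HPC arrays were scanned on 2 other days than the iHPC and NPC arrays, so scan day and cell type cannot be told apart in comparisons with HPC. In RNA from whole cultures, fewer cells of a type and less RNA per cell cannot be told apart.

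Hox transcripts were detected for more genes in NPC and iHPC than in HPC. In NPC 22 of the 38 genes were detected, in iHPC 9F 20, in iHPC 10F 19, in HPC replicate 1 9 and in HPC replicate 2 4. Of all spots, 62.0%, 63.0%, 58.9%, 65.6% and 64.9% were well above background on these arrays, in the same order. The Hox genes did not exceed that share on any array. The HoxA cluster differed most in count. All 11 HoxA genes were detected in NPC, 10 in 9F, 9 in 10F and 2 on each HPC array. HoxB genes were detected in 7 of 10 cases in NPC, 6 on each iHPC array, 4 in HPC replicate 1 and 1 in replicate 2. Few HoxC genes were detected. Of the 8 with a probe, 1 was detected in NPC, 2 in 9F, 1 in 10F, and 2 and 1 in HPC. HoxD gave 3 of 9 genes in NPC, 2 in 9F, 3 in 10F, 1 in HPC replicate 1 and 0 in replicate 2.

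**Figure D1:**
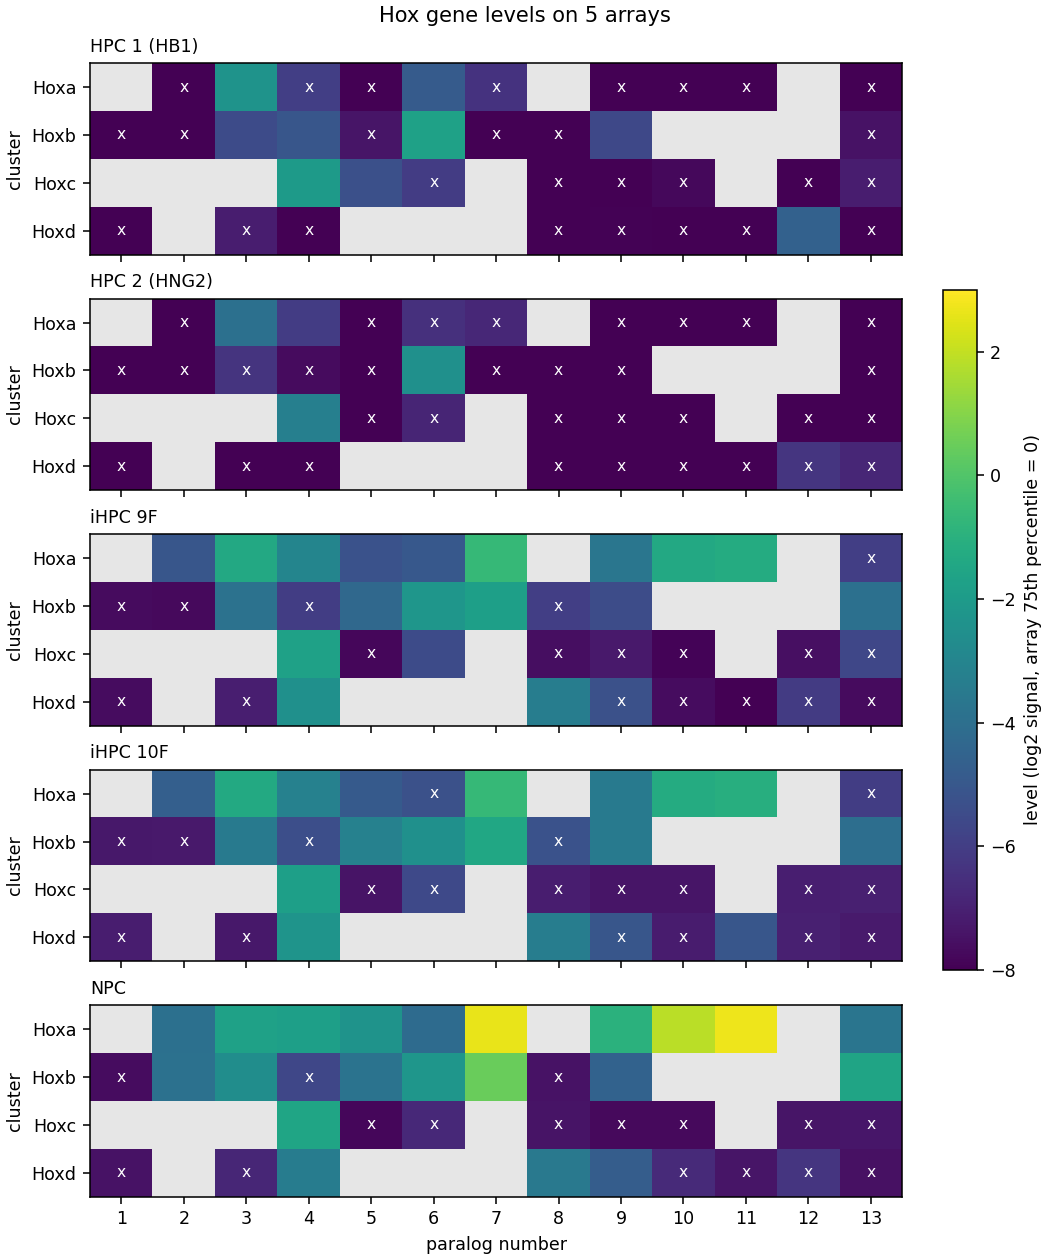
Level of each Hox gene (colour, log2 signal with the array's 75th percentile at 0) by cluster (rows) and paralog number (columns), with 1 panel per array; an x marks a gene not well above background, grey marks a position for which no gene, probe or value is shown, and levels under -8 have the darkest colour. HoxA is free of marks in NPC and nearly filled with them on both HPC arrays, where 2 of 11 genes were detected.

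Not every gene could be tested. The test took genes whose probe passed the background mark on all arrays of some group, and 22 Hox genes did. All 22 passed through NPC, a single array, 18 of them also through iHPC, and 3, Hoxa3, Hoxb6 and Hoxc4, also through HPC. Hoxa6, Hoxa13, Hoxb2 and Hoxd9 passed through NPC alone. A gene that passed through its bright group had to lie higher there, so the counts and medians of tested genes describe those genes and support nothing about the clusters as a whole. For that reason the count of each comparison is followed by the count and the median over all 38 genes without the filter. Counts and medians by cluster or position cover tested genes only.

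The first comparison asked what became of the Hox transcripts of the neural line once the factors had been introduced. Levels of 4 genes in the 5′ part of HoxA, Hoxa7, Hoxa9, Hoxa10 and Hoxa11, fell between 6.14- and 14.6-fold and yet stayed well above background in both iHPC cultures. Hoxb2 also fell. Of the 22 tested genes 5 were lower in iHPC, 0 were higher and 17 did not pass (limma, adjusted p under 0.05 over 19310 genes). Of all genes tested, 2.85% were called lower and 2.8% higher, 5.64% in all. At an unadjusted p under 0.05, 10 Hox genes were lower and 1 was higher. The median log2 difference was -1.01 over the 22 genes and 0.03 over all genes tested.

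Hoxa11, a gene of the forearm, lower leg and kidney, was at 2.71 in NPC, at -1.22 in 9F and at -1.10 in 10F. It was not well above background at -8.04 and -8.57 in HPC. It fell by 3.87 ± 0.33 (SE) on the log2 scale, 14.6-fold, from NPC to iHPC (limma adjusted p = 0.0301). The iHPC values thus lay between those of the other groups, with a gap on each side that was far wider than the 9F to 10F difference.

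Hoxa7, a gene of the thoracic trunk, was at 2.65 in NPC, -0.64 in 9F and -0.61 in 10F, and not well above background in HPC at -6.41 and -6.77. It fell by 3.27 ± 0.28 (SE), 9.67-fold (limma adjusted p = 0.0301). Hoxa10, which acts in the lumbar trunk and the uterus, was at 1.85, -1.36 and -1.24 in the same order and -8.02 and -8.54 in HPC, and fell 8.87-fold (adjusted p = 0.0339). Hoxa9, known also from blood stem cells, was at -0.97, -3.66 and -3.52, and -8.30 and -8.91 in HPC, and fell 6.14-fold (adjusted p = 0.0499). In each of the 3 genes the iHPC cultures lay within 0.15 of each other. Hoxa9 was the last gene inside the threshold, and with a mean-variance trend it did not pass (adjusted p = 0.07).

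Just outside the threshold, Hoxa5, which is needed for the lung, was at -2.34 in NPC, -5.21 in 9F and -4.87 in 10F, a log2 difference of -2.70 ± 0.38 (SE; limma adjusted p = 0.0506). Hoxa13, the gene of the hand, foot and genital tubercle, was detected in NPC at -3.73 and not well above background on either iHPC array, and was at least 3.25-fold lower there (adjusted p = 0.0576). Hoxa4 was at -1.81 in NPC, -3.0 and -3.16 in iHPC (difference -1.27, adjusted p = 0.0769). These 3 genes did not pass. NPC lay above both iHPC arrays in each, an order that a single array can easily have and that supports nothing.

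At the 3′ end of HoxA, Hoxa2 and Hoxa3 did not pass. Hoxa2, which sets the identity of the second branchial arch, was at -3.92 in NPC, -5.07 in 9F and -4.67 in 10F (difference -0.95, limma adjusted p = 0.257). Hoxa3, needed for the thymus and parathyroid, was at -1.68, -1.37 and -1.30, with iHPC above NPC by 0.35 (adjusted p = 0.835), and its other probe had the opposite sign.

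Along HoxA, the iHPC to NPC difference went with position. The median was -0.95 over Hoxa2 to Hoxa4 (range -1.27 to 0.35) and -2.70 over Hoxa5 to Hoxa13 (range -3.87 to -0.96). The smallest difference of the latter was that of Hoxa6, which was at -4.17 in NPC, -4.98 in 9F and -5.27 in 10F, the last not well above background. Over these 10 genes, paralog number and log2 difference had a Spearman correlation of -0.68 and a Pearson correlation of -0.70. These are descriptions across genes that share the same 3 arrays and 1 chromosome region, and the difference also correlated with the NPC level (Spearman -0.73). Over 21 tested Hox genes the Spearman correlation with paralog number was -0.31.

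**Figure D2:**
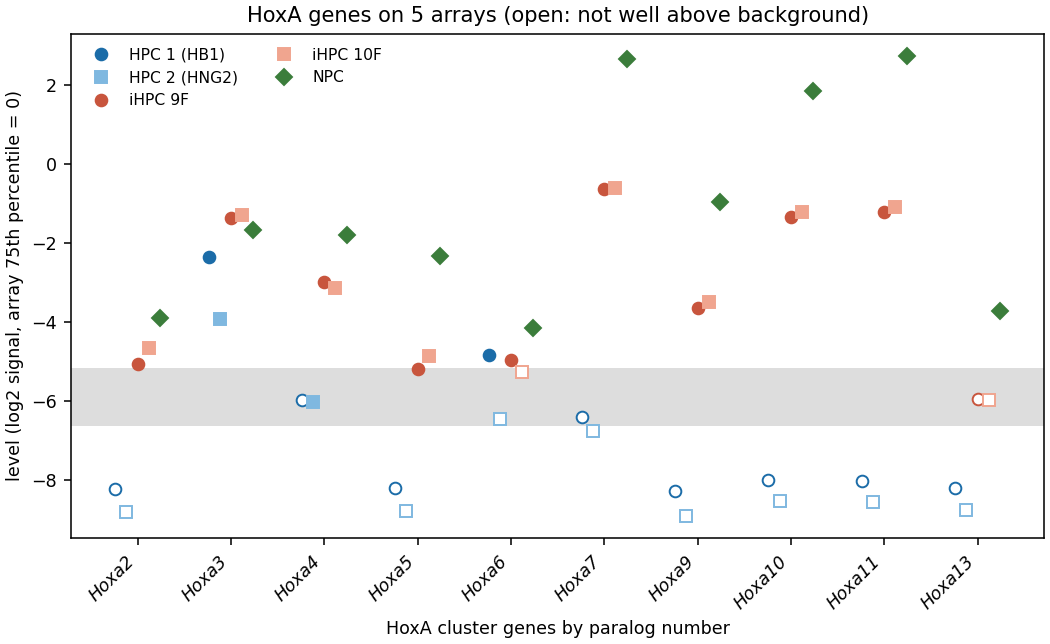
Levels of 10 HoxA genes (y axis, log2 signal with the array's 75th percentile at 0) in order of paralog number on the 5 arrays; filled points were well above background, open points were not, and the grey band spans the lowest such signal of the 5 arrays (-6.62 to -5.19). For Hoxa7, Hoxa9, Hoxa10 and Hoxa11 the iHPC points lie 6.14- to 14.6-fold under the NPC point, while for Hoxa4 they lie at -3.0 and -3.16 against -1.81 in NPC.

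In HoxB, 1 gene changed between iHPC and NPC. Hoxb2, which acts in the hindbrain downstream of Hoxb1, was at -3.91 in NPC and not well above background at -7.73 in 9F and -7.23 in 10F. It was at least 2.88-fold lower in iHPC (limma adjusted p = 0.0374), and passed the filter through NPC alone. Its other probe, at -5.20 in NPC, was not well above background on any array, so the call rests on 1 probe. The p of that call takes dim values as they stand. With values floored at the lowest signal well above background it was 0.149, with normexp 0.196 and with a mean-variance trend 0.0531. Hoxb7 was at 0.49 in NPC, -1.78 in 9F and -1.43 in 10F, a difference of -2.09 ± 0.39 (SE) that did not pass (adjusted p = 0.0762). Hoxb13, a caudal gene known from prostate, was at -1.58, -3.96 and -4.01, also without passing (adjusted p = 0.163). NPC lay above both iHPC arrays in both genes, which with a single NPC array supports nothing.

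The other tested HoxB genes did not pass. Hoxb5 was at -3.83 in NPC, -4.29 in 9F and -3.16 in 10F, and Hoxb9 at -4.56, -5.45 and -3.47, so that in both the iHPC cultures lay on either side of NPC. Hoxb3 was at -2.59, -3.84 and -3.48 (difference -1.07, limma adjusted p = 0.291). Hoxb6, on the probe used, was at -2.21, -2.24 and -2.46 (difference -0.14, adjusted p = 0.892).

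No HoxC or HoxD gene passed between iHPC and NPC. Hoxc4, the only tested HoxC gene, was at -1.53 in NPC, -1.72 in 9F and -1.77 in 10F. Hoxd4, a hindbrain gene that responds to retinoic acid, was at -3.39, -2.49 and -2.29, with iHPC above NPC by 0.99 ± 0.25 (SE; limma adjusted p = 0.124). Hoxd8 was at -3.54, -3.34 and -3.33, and Hoxd9 at -4.77 in NPC and not well above background in iHPC. The medians of the log2 difference by position were -0.95 for paralog groups 1 to 3 (5 genes tested), -0.59 for groups 4 to 8 (10 genes) and -2.40 for groups 9 to 13 (7 genes).

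Without the filter, 0 of the 38 genes were called between iHPC and NPC, where 0.41% of all 28770 genes were called lower and 0.65% higher. The median log2 difference was then -0.18 over the 38 genes and 0.08 over all genes. At an unadjusted p under 0.05 in limma, 10 of the 38 were lower and 2 higher. The count of 5 also turned on the HPC pair, whose median gene SD was 0.374 against 0.105 for the iHPC pair. Without HPC replicate 1 or without HPC replicate 2 it was 13, of which 12 were lower and 1, Hoxd4, was higher. It was 0 when iHPC replicate 1 or replicate 2 was left out; then no gene of the array was called and 7 and 8 Hox genes had an unadjusted p under 0.05. Scan day as a block leaves the arrays of the day shared by iHPC and NPC. It gave the same count and the same adjusted p-values of Hox genes as leaving out either HPC array. In each of these fits the residual spread came from the iHPC pair alone, so they are 1 fit and not separate checks. On the slide that held both 10F and NPC, the 10F minus NPC difference was -3.81 for Hoxa11, -3.26 for Hoxa7 and -3.09 for Hoxa10.

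The second comparison asked how far the induced cells matched liver-derived progenitors in their Hox transcripts. Genes of HoxA, HoxB and HoxD were detected in iHPC that were not well above background in either liver line. Of the 22 tested genes 14 were higher in iHPC, 0 were lower and 8 did not pass (limma, adjusted p under 0.05). Of all genes tested, 3.55% were called higher and 1.88% lower, 5.43% in all. At an unadjusted p under 0.05, 17 Hox genes were higher and 0 lower. The calls comprised 9 of 11 tested genes in HoxA, 2 of 7 in HoxB, 0 of 1 in HoxC and 3 of 3 in HoxD. The median log2 difference was 3.56 over the 22 genes, with dim values taken as they stand, and 0.05 over all genes tested.

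For 11 of the 14 genes, among them those named next, HPC gives only a bound, which sets the iHPC mean against the lowest signal well above background or the probe's own signal, whichever was higher. Hoxa7 was at least 51.4-fold higher in iHPC, Hoxa11 at least 35.6-fold and Hoxa10 at least 32.2-fold (limma adjusted p = 0.0157 for each). Hoxa9 was at least 6.58-fold, Hoxa2 at least 2.72-fold and Hoxa5 at least 2.41-fold higher. With values floored at the lowest signal well above background, Hoxa2 and Hoxa5 did not pass (limma adjusted p = 0.101 and 0.115). Outside HoxA, Hoxb7 was at least 26.1-fold, Hoxd4 at least 15.1-fold, Hoxd8 at least 7.84-fold and Hoxb13 at least 5.01-fold higher. Those bounds cover genes of all 3 position classes.

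Hoxa4 was measured on both sides. It was at -5.98 and -6.03 in HPC, well above background in replicate 2 only, and at -3.0 and -3.16 in iHPC, a rise of 2.92 ± 0.19 (SE) or 7.58-fold (limma adjusted p = 0.0207). Hoxa13 and Hoxd9 were called but were not well above background in either group, so no fold is given for them. Hoxb5, dim on both HPC arrays, was at least 6.01-fold higher in iHPC without passing (adjusted p = 0.0612). Hoxb3 and Hoxb9, each detected on 1 HPC array, were higher in iHPC by 2.24 and 2.81, also without passing (adjusted p = 0.0703 and 0.299). In Hoxb9 the groups nearly met, with HPC replicate 1 detected at -5.63 and 9F at -5.45.

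3 genes were detected on all 5 arrays, HPC included, and none of them passed in any of the 3 comparisons on the probe used. Hoxc4 was at -1.99 and -3.25 in HPC and -1.72 and -1.77 in iHPC. Hoxa3 was at -2.36 and -3.94 in HPC and -1.37 and -1.30 in iHPC, a log2 difference of 1.82 ± 0.61 (SE; limma adjusted p = 0.175). Hoxb6 was at -1.69 and -2.50 in HPC and -2.24 and -2.46 in iHPC, so that the groups overlapped. HNG2 lay under HB1 in all 3 genes, by 0.81 to 1.58.

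Without the filter, 12 of the 38 genes were called higher in iHPC than in HPC and 0 lower, against 1.21% of all genes called higher and 0.393% lower (19 and 0 at an unadjusted p under 0.05 in limma). The median log2 difference was then 1.72 over the 38 genes, with dim values taken as they stand, and 0.27 over all genes. With the filter, leaving out HPC replicate 1 or HPC replicate 2 gave more Hox calls and also more calls over all genes. Leaving out iHPC replicate 1 or replicate 2 gave 0, and then no gene of the array was called and 16 Hox genes each time had an unadjusted p under 0.05 in limma.

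**Figure D3:**
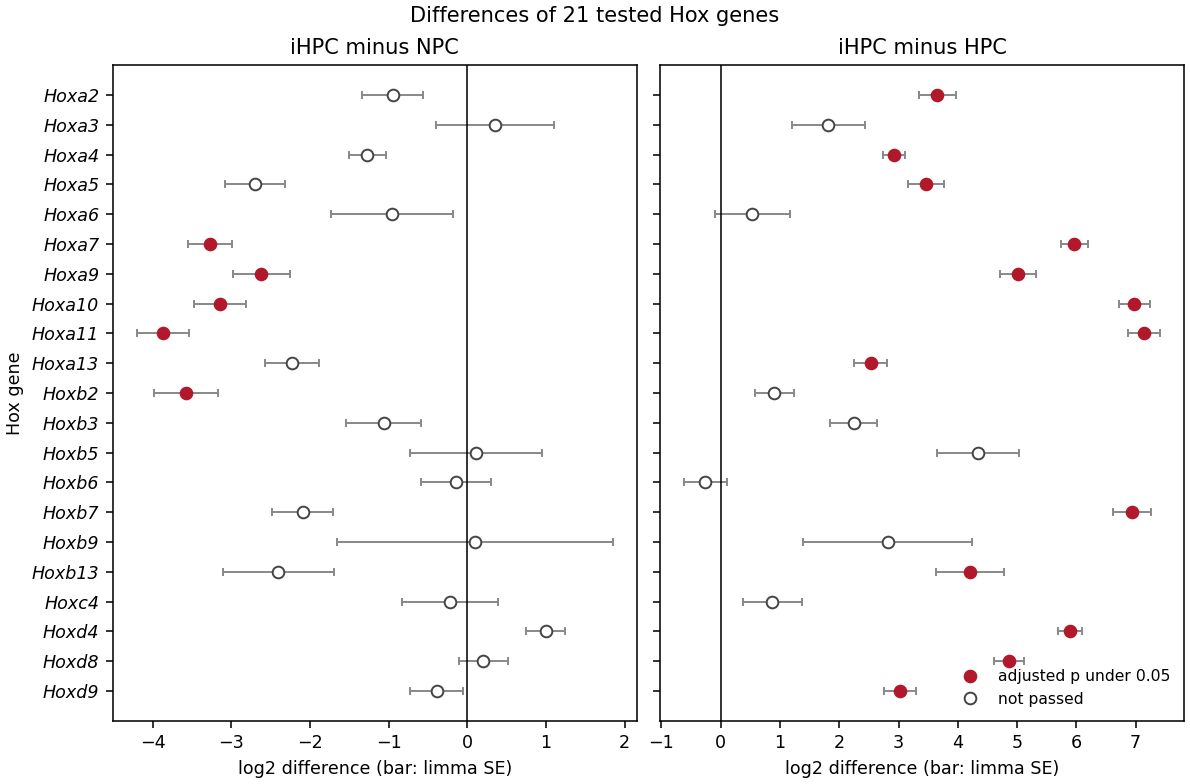
Log2 differences (x axis) of 21 of the 22 tested Hox genes for iHPC minus NPC (left) and iHPC minus HPC (right), with bars for limma's standard error and filled points for adjusted p under 0.05. The filled points on the left are the 5 genes lower in iHPC than in NPC, and those on the right are 13 of the 14 calls between iHPC and HPC, all higher in iHPC; values not well above background enter as they stand.

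The third comparison, between the liver and neural lines, gave the most calls. Of the 22 tested genes 16 were lower in HPC than in NPC and 0 were higher (limma, adjusted p under 0.05), where 8.97% of all genes tested were called lower and 6.68% higher, 15.7% in all. At an unadjusted p under 0.05, 17 were lower and 0 higher. By cluster these were 9 of 11 in HoxA, 4 of 7 in HoxB, 0 of 1 in HoxC and 3 of 3 in HoxD. The median log2 difference was -4.63 over the 22 genes and -0.03 over all genes tested.

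The largest bounds were those of the 4 genes whose NPC level lay above 0. Hoxa11 was at least 520-fold, Hoxa7 at least 497-fold, Hoxa10 at least 286-fold and Hoxb7 at least 111-fold lower in HPC. Hoxb13 was at least 26.5-fold lower, and Hoxb2, which was not detected in iHPC either, at least 5.29-fold. At the other end Hoxd9 was at least 2.91-fold lower, and with floored values it did not pass (limma adjusted p = 0.0718). Hoxa4 and Hoxb3 were detected on 1 HPC array each and fell 18.3-fold (limma adjusted p = 0.0112) and 9.91-fold (adjusted p = 0.0325).

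Without the filter, 15 of the 38 genes were called lower in HPC than in NPC and 0 higher, against 3.67% of all genes called lower and 2.04% higher (18 and 0 at an unadjusted p under 0.05 in limma). The median log2 difference was then -1.54 over the 38 genes and -0.31 over all genes. With the filter, more Hox genes were called when HPC replicate 1 or HPC replicate 2 was left out, and more over all genes too. None was called with either iHPC array left out, when no gene of the array was called and 17 Hox genes each time had an unadjusted p under 0.05 in limma. The 3 comparisons share arrays, so their counts are not independent of each other.

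4 Hox genes had more than 1 tested probe, and the probes of Hoxb6 and Hoxa3 differed in HPC. On the build mm7 named in the file headers, the Hoxb6 probe used, of the higher mean, lies at chr11:96408006-96408065 and the other at chr11:96410288-96410347, 2282 bases further along the direction of transcription. The second was at -7.06 and -6.25 in HPC, the first of these not well above background, at -1.66 in 9F, -0.87 in 10F and -1.15 in NPC. On that probe iHPC was higher than HPC by 5.39 on the log2 scale (limma adjusted p = 0.026) and the HPC minus NPC difference was -5.51 (adjusted p = 0.019), whereas on the probe used neither passed. Between iHPC and NPC both probes gave differences near 0, of -0.14 and -0.12.

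The probes of Hoxa3, at chr6:52133666-52133725 (used) and chr6:52133000-52133059, start 666 bases apart. The second was not well above background in HPC at -7.97 and -8.43, and was at -4.61 in 9F, -4.74 in 10F (not well above background) and -3.89 in NPC. It was called at least 3.1-fold higher in iHPC than in HPC (limma adjusted p = 0.0224) and NPC exceeded HPC at least 5.35-fold (adjusted p = 0.0126), whereas on the probe used neither comparison passed. The detection of Hoxa3 and Hoxb6 in HPC therefore rests on 1 probe each, apart from a signal at -6.25 for the second Hoxb6 probe in replicate 2. Both probes of Hoxa4 and of Hoxa13 gave the same signs, while the dimmer probe of each missed the threshold between iHPC and HPC (adjusted p = 0.0901 and 0.423). The dimmer Hoxa13 probe also missed it between HPC and NPC (limma adjusted p = 0.0962).

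**Figure D4:**
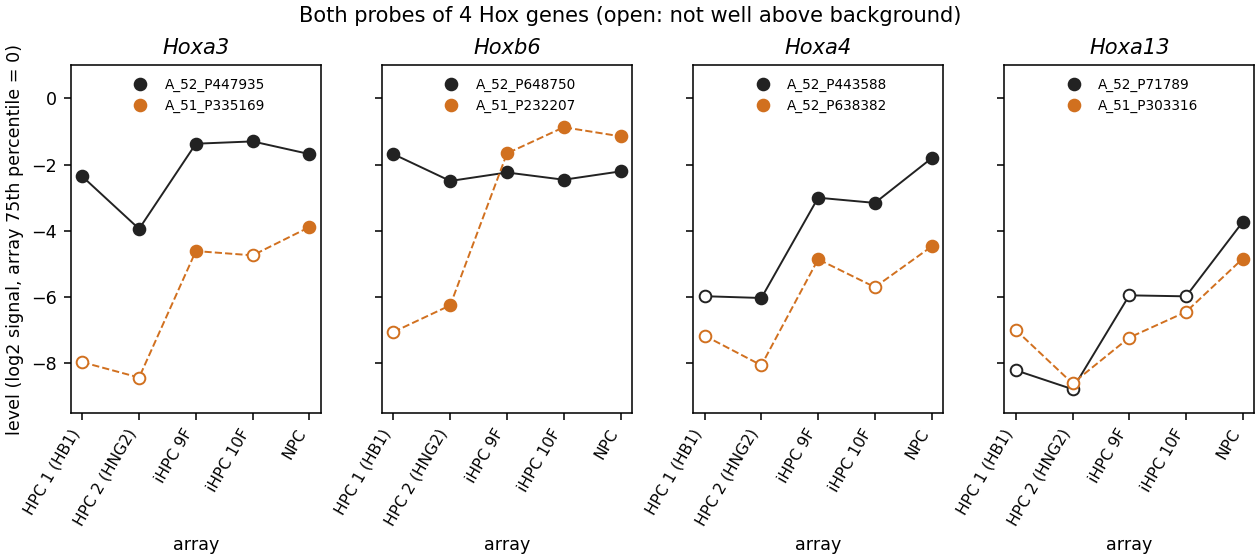
Levels (y axis, log2 signal with the array's 75th percentile at 0) of both tested probes of Hoxa3, Hoxb6, Hoxa4 and Hoxa13 on the 5 arrays; black is the probe used, orange the other, and open points were not well above background. In Hoxb6 the black probe is near level on all arrays, from -2.50 to -1.69, while the orange one runs from -7.06 in HPC replicate 1 to -0.87 in iHPC 10F.

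The cultures made with 9 and with 10 factors were compared without a test. Over the 18 Hox genes detected on both iHPC arrays, the median absolute log2 difference was 0.152, against 0.149 over all genes tested. Hoxb9 was 1.98 and Hoxb5 1.13 higher in 10F, and no other tested Hox gene differed by more than 1. These were 11.1% of the 18 genes, against 3.94% of all genes tested. Hoxd11, which was not tested, was detected on the 10F array only, at -5.06 against -7.99 in 9F. With 1 array per culture these differences have no test.

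Of the 16 genes that were not tested, 11 were not well above background on any array. Hoxb4 (-5.04), Hoxc5 (-5.31) and Hoxd12 (-4.60) were detected in HPC replicate 1 alone, Hoxc6 (-5.47) in 9F alone and Hoxd11 in 10F alone. Hoxb1, the hindbrain gene whose probe was spotted 10 times, had 0 of 10 spots well above background on each of the 5 arrays, with a median level between -8.74 and -7.33. Its neighbour Hoxb2 was detected in NPC at -3.91, on 1 probe only.

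Among genes that lie next to the clusters on the chromosome the calls were near the share over all genes tested, which was 5.64% between iHPC and NPC, 5.43% between iHPC and HPC and 15.7% between HPC and NPC. Of 15 tested neighbours, 0 passed in limma between iHPC and NPC and 0 between iHPC and HPC (1 and 4 at an unadjusted p under 0.05). Between HPC and NPC 1 passed, the adaptor gene Skap2 beside HoxA, with a log2 difference of -1.49 ± 0.28 (SE; adjusted p = 0.0493). Their median log2 differences were 0.04, 0.19 and -0.31 in the 3 comparisons. Hibadh, at the other side of HoxA, was at 3.03 and 2.69 in HPC, 3.44 and 3.66 in iHPC and 3.44 in NPC.

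Of 5 probes of other names inside HoxA, 2 (5730596B20Rik and ENSMUST00000071583) were not well above background on any array. 5730446D14Rik, a RefSeq synonym of the antisense gene Hoxaas2, was at -4.02 in NPC, -4.34 in 9F and -4.55 in 10F and not well above background in HPC, and was at least 3.64-fold higher in iHPC than in HPC (limma adjusted p = 0.0224). 2700086A05Rik, named by the file, was detected in NPC at -3.93 and on no other array. A probe between Hoxa11 and Hoxa13, 9530018H14Rik, was likewise detected in NPC alone, at -3.36. Both of these lie on the strand of the HoxA genes. The probes were picked by their coordinates after the values were seen.

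Cofactors with which Hox proteins bind DNA were detected on all arrays, 9 of 9 genes on each. Meis2 was at 3.24 in NPC, 1.01 in 9F and 1.04 in 10F, and fell by 2.21 ± 0.30 (SE) on the log2 scale in iHPC (limma adjusted p = 0.0487). In HPC it was at 2.34 and 2.79. Meis1 was at -0.15 in NPC, -3.20 and -2.56 in iHPC and -3.75 and -3.30 in HPC. It was lower in HPC than in NPC, by a log2 difference of -3.37 (adjusted p = 0.0253), and the iHPC to NPC difference of -2.73 did not pass (adjusted p = 0.058). The other 7 cofactors, which include Pbx2, Pbx3 and Pknox1, passed in no comparison. Between iHPC and HPC 0 of 9 passed in limma (2 at an unadjusted p under 0.05), where 5.43% of all genes tested were called.

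Among genes that act upstream of the clusters, Cdx2 was called in the opposite direction to the Hox genes. Cdx2, a caudal-type factor that activates central and posterior Hox genes in the embryo and is also an intestinal regulator, was at 4.70 and 4.37 in HPC, -0.29 in 9F, -0.83 in 10F and, not well above background, -7.85 in NPC. Over NPC it was higher at least 1117-fold in HPC and at least 32.7-fold in iHPC (limma adjusted p = 0.00964 and 0.0267). From HPC to iHPC it fell by 5.09 ± 0.30 (SE; adjusted p = 0.0193). So the arrays with the highest Cdx2 were those on which 2 of 11 HoxA genes were detected, and the array on which Cdx2 was not well above background was that with 11 of 11.

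Of 10 tested genes of retinoic acid synthesis, breakdown, binding and reception, 4 passed in at least 1 comparison. Of all genes tested, 5.64% were called between iHPC and NPC, 5.43% between iHPC and HPC and 15.7% between HPC and NPC. Rara, Rarb, Aldh1a1, Aldh1a3, Cyp26a1 and Cyp26b1 passed in none. The binding protein genes Crabp1 and Crabp2 were at 5.23 and 0.28 in NPC. Crabp1 was at 1.26 and 1.65 in iHPC and at -7.04 (not well above background) and -5.75 in HPC, and was 7.85 ± 0.53 (SE) higher in iHPC than in HPC (limma adjusted p = 0.021). Crabp2 was at -4.85 in 9F and not well above background in 10F, and fell by 5.48 ± 0.39 (SE) from NPC to iHPC (adjusted p = 0.0285). Aldh1a2, which makes retinoic acid, was at -1.66 in NPC, -1.0 and -1.31 in iHPC and -4.06 and -4.17 in HPC, 7.77-fold higher in iHPC than in HPC (adjusted p = 0.0231). The receptor gene Rarg was 3.73-fold lower in HPC than in NPC (adjusted p = 0.0255).

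Of the 14 tested upstream genes 1 was higher and 2 lower in iHPC than in NPC, 3 were higher and 1 lower in iHPC than in HPC, and 1 was higher and 5 lower in HPC than in NPC. At an unadjusted p under 0.05 in limma, 8, 5 and 9 of them differed in the 3 comparisons, where 5.64%, 5.43% and 15.7% of all genes tested were called.

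**Figure D5:**
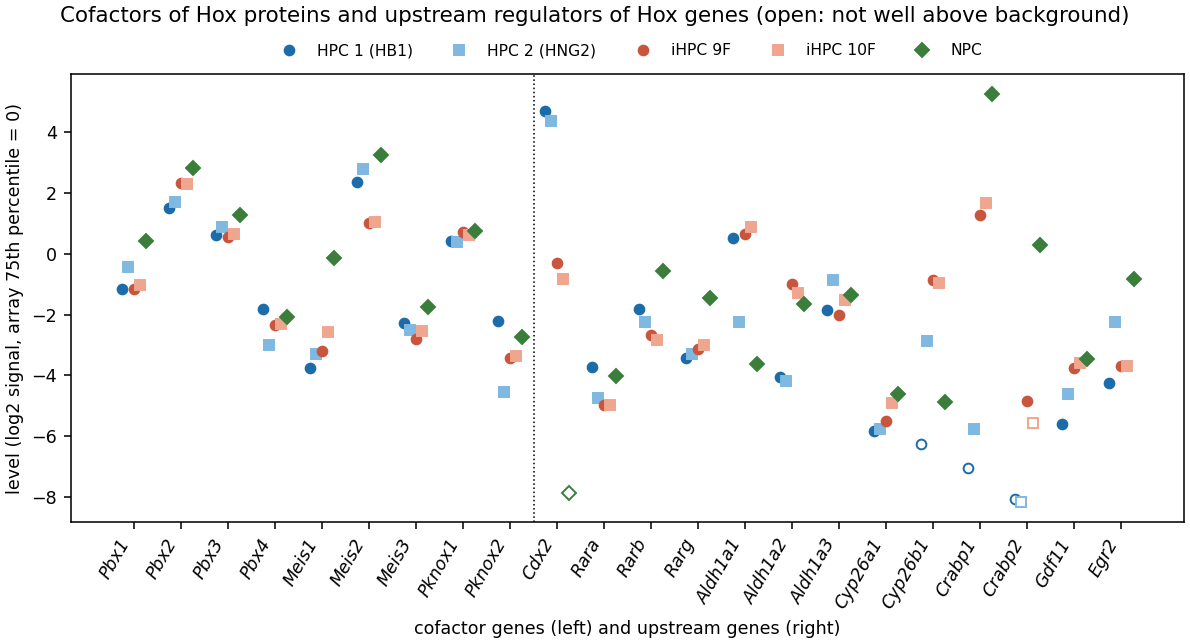
Levels (y axis, log2 signal with the array's 75th percentile at 0) of 9 Hox cofactor genes (left of the dotted line) and 13 of the 14 upstream genes (right) on the 5 arrays, with open points for values not well above background. Cdx2 is highest in HPC (4.70 and 4.37) and not well above background in NPC (-7.85), and Crabp1 runs the other way, from 5.23 in NPC to -7.04 in HPC replicate 1.

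Of 24 tested genes for the chromatin complexes that hold the clusters active or silent, only Cbx7 was called in any comparison. In limma 0 passed between iHPC and NPC, 1 between iHPC and HPC and 1 between HPC and NPC (3, 6 and 8 at an unadjusted p under 0.05). Of all genes tested, 5.64%, 5.43% and 15.7% were called in these comparisons. Cbx7, a Polycomb subunit that reads the silencing mark, was at -1.89 and -2.20 in HPC, 1.23 and 1.29 in iHPC and 0.50 in NPC, and was called in both other comparisons, 9.86-fold higher in iHPC than in HPC (limma adjusted p = 0.0206) and 5.81-fold lower in HPC than in NPC (adjusted p = 0.0199). Ezh2, the silencing enzyme, lay between 1.68 and 2.51 on the 5 arrays, and Phc2, another Polycomb subunit, between 3.21 and 4.11. Of the 10 tested homeobox genes outside the clusters, 0 passed in limma between iHPC and NPC (2 at an unadjusted p under 0.05), where 5.64% of all genes tested were called. En2 was at least 2.98-fold lower in iHPC than in HPC, and HPC exceeded NPC at least 3.34-fold, and Dlx1 was 13.1-fold lower in HPC than in NPC (adjusted p = 0.0491).

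Markers of other cell types also differed between the groups, not always in the order of the Hox levels. The summed linear signal of 13 mesenchyme markers, in units of the array's 75th percentile, was 348 in NPC, 83.1 in 9F, 73.2 in 10F, and 112 and 106 in HPC. Vim alone made up most of the HPC and iHPC sums. It was at 6.72 and 6.47 in HPC, 6.04 and 5.74 in iHPC and 6.48 in NPC, and was called in no comparison. The sums therefore say little about the order of the other mesenchyme markers. Of these 13, 2 (Col1a2 and Pdgfra) were lower in iHPC than in NPC, where 2.85% of all genes tested were called lower. Between HPC and NPC 5 were lower (Col1a2, Col3a1, Pdgfra, Twist1 and Tbx18), where 8.97% of all genes tested were called lower. Tbx18 was also higher in iHPC than in HPC. The summed signal of 10 neural progenitor markers was 18.2 in NPC, 10.5 and 11.4 in iHPC, and 1.92 and 3.34 in HPC. Zic1 alone made up most of the NPC sum, so these sums say little about the order of the other neural markers. Of the 8 tested, 2 (Sox2 and Pax6) were lower in iHPC than in NPC. Nes lay the other way, at 2.66 and 2.87 in iHPC against 1.18 in NPC, and was called in no comparison. Zic1, a neural factor not well above background in HPC, was at 3.70 in NPC and 1.74 and 1.71 in iHPC, and Sox2 was at 0.86, -3.57 and -4.41. Ptprc, a blood cell marker, was at -3.29 and -2.84 in iHPC and not well above background on the other arrays, and was at least 5.78-fold higher in iHPC than in NPC and at least 9.49-fold higher than in HPC (limma adjusted p = 0.0301 and 0.0193). It was the 1 gene called of 3 tested blood markers. The part of these cells in the Hox differences was not tested.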

How the data were processed

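RNA (0.25 µg per sample, per the labels' protocols) of 5 cell cultures was hybridised to 1-colour Agilent mouse arrays. The deposited values are spot intensities, which Agilent Feature Extraction 10.7.3.1 background-subtracted, per the file headers. The deposited matrix equalled these intensities on 100% of the spots, and no normalization between arrays is recorded.

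Here log2 of each intensity was taken minus the 75th percentile of its array (590.3 to 1074 in signal units). Control and outlier spots were dropped, and repeat spots of a probe were averaged. Names came from RefSeq accessions (22951 probes), RefSeq symbols (6659) or the file (11564). Of a gene's tested probes, that with the highest mean was used. Probes entered the test when well above background throughout at least 1 group. All 5 arrays entered 1 limma 3.58.1 fit in R 4.3.3 (lmFit, eBayes, two-sided, 3 groups, 2 residual df); p-values were adjusted by Benjamini-Hochberg over 19310 genes, and the single NPC array was taken to vary like the others. The script was tested on simulated data. "At least" folds set the bright group's mean against a floor, taken per dim array as the dimmest signal that passed the background mark or the signal of the probe itself, whichever was higher. The Hox genes, the gene lists and the tests were chosen with earlier results of these data known. Any Hox gene could be named. Of other lists, genes called in any comparison were named, together with some genes that were not called. Values of 1 Hox gene and 1 upstream gene are not reported here singly, though counts include them. Figures were drawn with matplotlib 3.10.9. Alternatives changed the scaling, background correction, filter, probe, model, block and arrays.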

Additional observations from a re-analysis of the deposited data

How the results depend on the processing

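The precision of every value is limited by the number of arrays, with 2, 2 and 1 per group, and values near background are limited by signal. The 5 calls between iHPC and NPC became 9 with quantile normalization, 3 with a mean-variance trend, 13 with only the groups compared or with scan day as a block, and 0 without the filter on dim probes, with probes well above background on all arrays (3 Hox genes tested) or with the iHPC arrays as separate groups. Leaving out 1 array gave 0 to 13. The 14 calls between iHPC and HPC became 0 with probes well above background on all arrays and 0 with iHPC arrays as separate groups, and 0 to 19 with 1 array left out. The 16 calls between HPC and NPC became 0 under those alternatives and with only the groups compared, and 0 to 20 with 1 array left out. At an unadjusted p under 0.05, limma gave 12, 0 and 8 Hox genes in the iHPC to NPC fits with 0 calls, in the order named, 1 and 16 in those of iHPC against HPC, and 0, 17 and 17 in those of HPC against NPC. Counts under the other alternatives stayed within 1.5 times. For iHPC against NPC, the fits with only the groups compared, scan day as a block or either HPC array left out were the same. In each, the residual spread came from the iHPC pair alone, so they are not separate checks. When 1 array was left out, calls over all genes rose or vanished together with those of Hox genes. Median centring moved the median of all genes by -0.25 (iHPC against HPC) and 0.29 (HPC against NPC), and normexp by 0.13 and -0.17, and the numbers of tested Hox genes above and below 0 were the same under each scaling.

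Signs reversed in 5 genes. Hoxa3 between iHPC and NPC was -0.22 as the mean of its probes and -0.79 on its other probe. Leaving out 1 array gave -0.46 to 0.67 for Hoxb5 and -0.89 to 1.09 for Hoxb9 in that comparison, and -0.27 to 1.34 for Hoxa6 between iHPC and HPC. Hoxb6 between iHPC and HPC was 2.56 as the mean of its probes, 5.39 on its other probe and -0.66 to 0.15 with 1 array left out, and between HPC and NPC -2.70, -5.51 and -0.29 to 0.52. The causes were not tested. Over single genes, 894 values kept sign and side of the threshold, 148 fell short of it and 68 newly passed. No paired analysis was possible because the labels give the groups no shared replicate numbers. Scan day as a random block could not be fitted. A second detection rule, over all probes of a gene, could not change the counts per array. It was already met by 1 probe of a pair, and no Hox gene had more probes than that.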
